A study of Mus musculus with 12 samples.

Results

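The genes described here encode the nuclear-encoded subunits of the mitochondrial oxidative phosphorylation system: complexes I to IV of the respiratory chain and the ATP synthase, complex V. They were taken by symbol from the array's annotation, namely every non-control probe whose accession matched a mouse gene symbol beginning with Ndufa, Ndufb, Ndufc, Ndufs, Ndufv, Uqcr, Cox4i, Cox5, Cox6, Cox7, Cox8 or Atp5, or matching Sdha, Sdhb, Sdhc, Sdhd or Cyc1, with the Ndufaf assembly factors left out. This gave 84 genes on 104 probes, of 17178 named genes and 41174 probes on the array. They comprised 35 genes of complex I, 4 of complex II, 9 of complex III, 19 of complex IV, where Ndufa4 was placed, and 17 of complex V. All 84 passed the filter on dim probes. By textbook knowledge, 77 are widely expressed and 7 are isoforms restricted to certain tissues (Cox4i2, Cox6a2, Cox6b2, Cox7a1, Cox7b2, Cox8b and Cox8c). No probe matched Ndufa4l2, Ndufa11, Ndufb1, Ndufb4b or Ndufb4c.

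RNA came from colonies grown in culture from dental epithelium of the labial cervical loop, where the stem cells of the ever-growing mouse incisor reside. The 12 colonies, each a single colony on 1 array, fell into 3 genotypes of 4: wild type, Bmi1 null (Bmi1-/-) and double null, labelled Bmi1-;Ink4a/Arf-, all on a mixed genetic background. Bmi1 encodes a Polycomb repressor subunit, and the Ink4a/Arf locus, annotated as Cdkn2a, encodes cell cycle inhibitors that Bmi1 is known to repress. The double null colonies therefore carry the Bmi1 null allele of the Bmi1 null colonies as well. The labels give neither ages nor how many animals the colonies came from. The p-values therefore speak only of the spread between these colonies, which may be technical.

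Electrons from NADH enter the chain at complex I and electrons from succinate at complex II. They pass through ubiquinone to complex III, then through cytochrome c to complex IV, which reduces oxygen. Complexes I, III and IV pump protons across the inner mitochondrial membrane, and complex V uses the gradient to make ATP. Complexes I, III, IV and V hold accessory subunits needed for assembly and stability besides their catalytic core, and several subunits of complex IV exist as a widely expressed form and a form of heart, skeletal muscle, lung or testis. Bmi1 has been studied as a regulator of mitochondrial function in other tissues.

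All values are levels on a log2 scale: the processed signal minus the 75th percentile of its array, so that 0 is the 75th percentile of all probes on that array. Levels of different probes are not comparable with each other. The arrays of the wild type stood apart from those of both mutants. The interquartile range of log2 signals was 2.49 to 2.62 on wild-type arrays, 4.32 to 4.68 on Bmi1 null arrays and 4.16 to 4.93 on double null arrays, and 90.7% to 96.9%, 77.2% to 84.4% and 74.8% to 87.6% of spots were well above background. Under this scaling the median of all genes lay 1.24 below wild type in Bmi1 null and 1.41 below in double null colonies, so that a change against wild type is also given after that median is taken off, and is then called relative. Genotype and width of the array's signal distribution cannot be told apart in these comparisons. Between the mutants the median of all genes differed by only -0.07. As a check of the labels, the level of Bmi1 averaged -0.27 ± 0.46 over wild-type, -2.36 ± 0.15 over Bmi1 null and -2.54 ± 0.2 over double null arrays (SD, n = 4 each). Bmi1 was well above background on all arrays of all 3 genotypes, and relative to all genes it lay at -0.85 and -0.86 from wild type. Cdkn2a was well above background on 0 of 4 wild-type, 4 of 4 Bmi1 null and 0 of 4 double null arrays. Of 11 epithelial markers on the array, 11 were well above background on all 12 arrays, and their linear levels summed to 146 to 425 on wild-type, 533 to 740 on Bmi1 null and 503 to 975 on double null arrays. This sum was higher on every mutant array than on any wild-type array, as was the median level of the widely expressed subunits, and its part in that level was not tested. The linear levels of 11 mesenchymal markers summed to 11.6 to 14.1 on wild-type arrays, 4.97 to 9.89 on Bmi1 null arrays, 5.13 to 9.25 on 3 double null arrays and 40.6 on double null replicate 4.

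**Figure D1:**
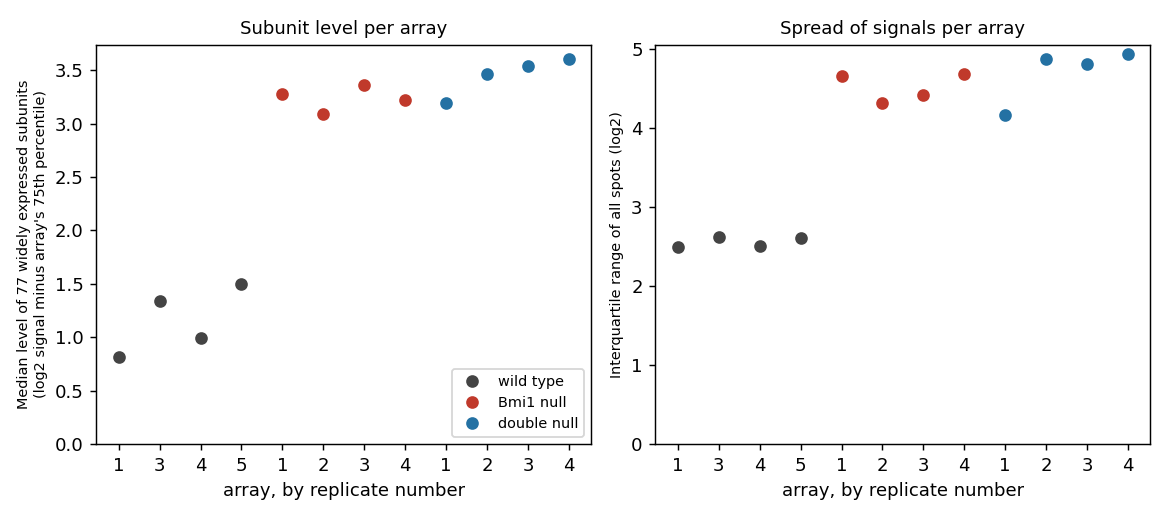
Median level of the 77 widely expressed subunit genes on each of the 12 arrays (left, log2 scale, 0 being the array's 75th percentile) and the interquartile range of all log2 signals of the same array (right), coloured by genotype; each point is 1 array, and n = 4 per genotype. Wild-type arrays lay between 0.82 and 1.5 on the left and between 2.49 and 2.62 on the right, below all 8 mutant arrays in both.

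The promoters of the genes differed in median CpG content between the widely expressed and the tissue-restricted members, with ranges that overlapped. RefSeq promoters of build GRCm38.p6, each running from 250 bases before to 50 bases after the transcription start, were at hand for 68 of the 84 genes. The 69 promoters of 64 widely expressed members held a median of 19 CpG dinucleotides (range 5 to 43) in 300 bases, against 7 over all 32851 promoters. The 4 promoters of tissue-restricted isoforms, those of Cox6b2, Cox7a1, Cox7b2 and Cox8b, held 10, 7, 10 and 2. The median ratio of observed to expected CpG was 0.82 and 0.38 in these 2 classes and 0.38 over all promoters. The first pair shown is Cox6b2, the testis form of a cytochrome c oxidase subunit and the member that changed most between the mutants, and Cox6b1, its widely expressed partner. Cox8b, the heart and muscle form of another subunit, is shown for its low CpG count, and Ndufb5, an accessory subunit of complex I, as the other member called between the mutants. All read 5′ to 3′ on the strand of the gene, and capitals mark CpG dinucleotides. Cox6b2 lies on the minus strand of chromosome 7 (chr7:4753045-4753344, 10 CpG), as do Cox8b (chr7:140900397-140900696, 2 CpG) and Cox6b1 (chr7:30626065-30626364, 17 CpG). Ndufb5 lies on the plus strand of chromosome 3 (chr3:32736813-32737112, 17 CpG).
Cox6b2: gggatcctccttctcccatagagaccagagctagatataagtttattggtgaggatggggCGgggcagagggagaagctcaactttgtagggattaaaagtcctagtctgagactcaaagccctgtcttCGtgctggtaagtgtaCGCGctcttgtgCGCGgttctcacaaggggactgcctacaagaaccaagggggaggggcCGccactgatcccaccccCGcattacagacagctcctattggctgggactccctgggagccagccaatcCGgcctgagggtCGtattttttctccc
Cox8b: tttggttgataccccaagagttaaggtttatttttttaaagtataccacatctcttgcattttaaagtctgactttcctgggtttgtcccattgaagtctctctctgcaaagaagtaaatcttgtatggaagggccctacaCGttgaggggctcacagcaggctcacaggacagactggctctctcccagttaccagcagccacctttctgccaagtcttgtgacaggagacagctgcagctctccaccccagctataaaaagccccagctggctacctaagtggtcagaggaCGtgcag
Cox6b1: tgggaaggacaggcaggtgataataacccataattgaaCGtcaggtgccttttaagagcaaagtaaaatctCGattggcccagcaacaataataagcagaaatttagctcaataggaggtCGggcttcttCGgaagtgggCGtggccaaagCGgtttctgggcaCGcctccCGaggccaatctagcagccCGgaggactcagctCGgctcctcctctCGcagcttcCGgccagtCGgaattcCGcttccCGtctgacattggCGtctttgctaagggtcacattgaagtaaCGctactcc
Ndufb5: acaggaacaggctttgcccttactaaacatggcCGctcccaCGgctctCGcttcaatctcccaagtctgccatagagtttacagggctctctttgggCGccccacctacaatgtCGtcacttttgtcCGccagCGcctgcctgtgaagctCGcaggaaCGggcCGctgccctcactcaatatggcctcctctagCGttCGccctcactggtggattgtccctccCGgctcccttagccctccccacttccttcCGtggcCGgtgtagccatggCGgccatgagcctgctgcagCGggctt

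Motifs of factors known from textbook work on respiratory genes were searched on both strands, as exact letters only. The NRF1 core CGCATGCG stood in 8 of the 68 members with a promoter (11.8%) and in 1.87% of all promoters. The YY1 motif AAGATGGCG stood in 7 members (10.3%) and in 1.40% of all promoters. The ETS motif CCGGAAGT, bound by GABP, stood in 5 (7.35%, against 3.89%), the CRE motif TGACGTCA in 3 (4.41%, against 1.79%) and the ERR motif TCAAGGTCA in 2 (2.94%, against 0.423%). The E-box CACGTG stood in 6 (8.82%, against 7.15%), and the E2F motif TTTCCCGC in 0 members and 1.07% of all promoters. None of these letters stood in the 4 windows printed for Cox6b2, Cox8b, Cox6b1 and Ndufb5. Members are counted once where a gene has more than 1 promoter, and a match is a description of letters, not of binding. Of the genes with a match to 2 of these motifs, Uqcr11 and Atp5j are shown, with the matches in capitals. Uqcr11, a small subunit of complex III, lies on the minus strand of chromosome 10 (chr10:80406772-80407071), with the ETS motif followed by the NRF1 core. Atp5j, a subunit of the stalk of complex V, lies on the minus strand of chromosome 16 (chr16:84834927-84835226), with the NRF1 core followed by the YY1 motif.
Uqcr11: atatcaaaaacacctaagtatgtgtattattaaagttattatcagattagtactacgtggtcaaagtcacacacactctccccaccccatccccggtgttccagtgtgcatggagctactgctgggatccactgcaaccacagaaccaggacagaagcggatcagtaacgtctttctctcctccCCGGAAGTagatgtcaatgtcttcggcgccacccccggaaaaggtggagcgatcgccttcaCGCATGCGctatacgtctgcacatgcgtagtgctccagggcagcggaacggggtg
Atp5j: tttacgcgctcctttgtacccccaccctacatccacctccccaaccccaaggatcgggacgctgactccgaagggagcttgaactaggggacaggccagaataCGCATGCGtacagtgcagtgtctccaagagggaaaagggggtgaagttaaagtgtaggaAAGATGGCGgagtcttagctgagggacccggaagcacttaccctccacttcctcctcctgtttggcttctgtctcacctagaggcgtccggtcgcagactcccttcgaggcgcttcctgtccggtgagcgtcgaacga

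**Figure D2:**
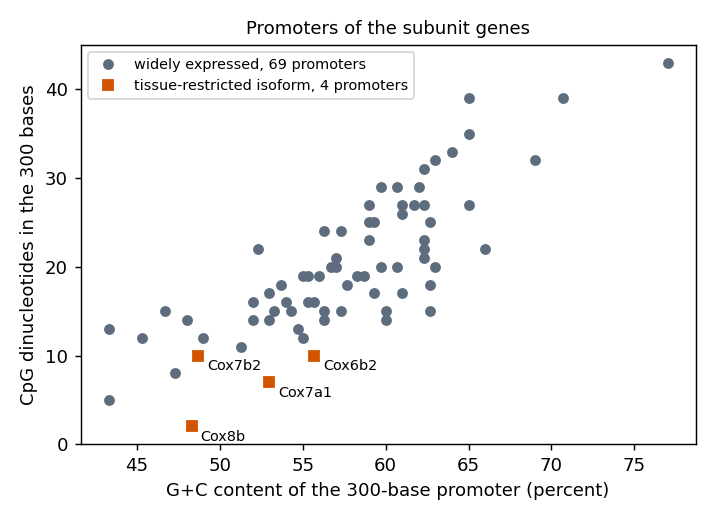
CpG dinucleotides in the 300 bases of each promoter (vertical axis) against its G+C content in percent (horizontal axis); each point is 1 promoter, circles for the 69 promoters of widely expressed subunit genes and squares for the 4 of tissue-restricted isoforms. The squares, Cox6b2, Cox7a1, Cox7b2 and Cox8b, lie at 2 to 10 CpG, and the circles at 5 to 43 with a median of 19.

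Most widely expressed subunits stood higher in both mutants than in wild type, in every complex, when arrays were set to their 75th percentile. On the scale of the 75th percentile, 75 members were called higher and 6 lower in Bmi1 null colonies (limma, adjusted p under 0.05), and 74 higher and 7 lower in double null colonies. The background was 25.2% of all 31064 genes called higher and 58.3% lower in Bmi1 null, and 25.5% and 59.9% in double null colonies. Among the 7791 genes with a mean level above 0, where 75 of the members lie, 65.2% of genes and 72 members were called higher in Bmi1 null colonies, and 66.8% of genes and 71 members in double null colonies. The median change of the 84 members was 1.98 in Bmi1 null (3.22 relative to all genes) and 1.97 in double null colonies (3.37 relative). Among genes with a mean level above 0, the median relative change was 2.32 (Bmi1 null) and 2.57 (double null) over all 7791. For the 75 members among them it was 3.26 and 3.42, so much of the members' rise was shared by genes of that level. The difference between these medians was not tested. Both comparisons share the 4 wild-type arrays. The members' median relative change in Bmi1 null colonies was 3.60 within slide 1 and 2.58 within slide 2, and in double null colonies 3.14 within slide 2, the slides that hold both genotypes. With slide as a block 73 members were called higher and 7 lower in Bmi1 null, and 72 and 8 in double null colonies.

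The size of this difference depended on how the arrays were brought to a common scale. With quantile normalization the median relative change was 1.52 for Bmi1 null and 1.47 for double null colonies, and in the authors' deposited table it was 1.5 and 1.36. When all arrays were given 1 common spread, it was 1.16 and 0.98, with 53 members called higher and 14 lower in Bmi1 null and 49 and 16 in double null colonies. Housekeeping gene groups stood in the same range on the 75th percentile scale: the cytoplasmic ribosomal protein genes had a median relative change of 3.27 for Bmi1 null and 3.54 for double null colonies (77 and 78 of 84 called higher), and the proteasome subunits 2.88 and 3.41 (36 and 37 of 39). By complex, the median relative change in Bmi1 null colonies was 3.29 for complex I, 2.72 for II, 3.26 for III, 3.18 for IV and 3.09 for V.

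**Figure D3:**
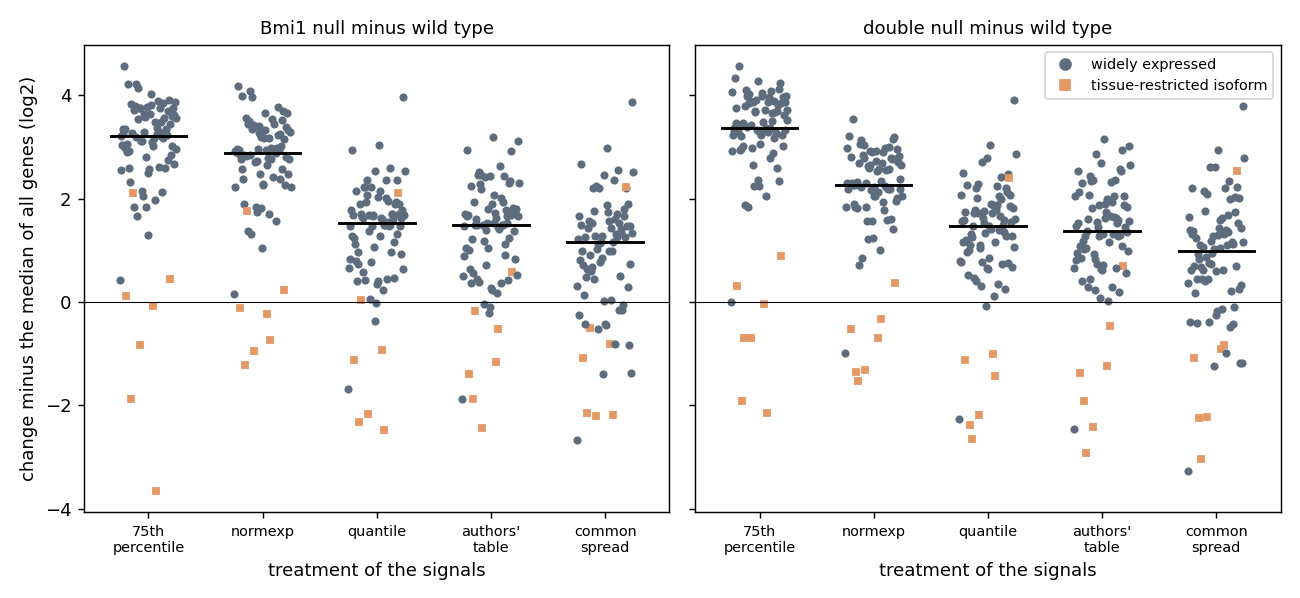
Change of each of the 84 subunit genes against wild type after the median of all genes was taken off (log2), in Bmi1 null (left) and double null colonies (right), under 5 treatments of the same arrays; circles are widely expressed members, squares tissue-restricted isoforms, and black bars the median of all 84. The median falls from 3.22 to 1.16 on the left and from 3.37 to 0.98 on the right, and stays above 0 under all 5; the lowest circle in each column is Ndufa1.

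For some genes the probes gave different changes against wild type. Of 16 members with several probes, 6 had probes whose changes differed by more than 1 log2 unit in Bmi1 null against wild type, and 6 in double null against wild type. Between the mutants 0 of 16 did so, and the widest gap was 0.42, for Atp5b. The widest gap against wild type was that of Ndufa1, an X-linked accessory subunit of complex I. Its brighter probe read 3.72, 3.4, 3.35 and 3.3 in wild type (replicates 1, 3, 4 and 5), 2.61, 2.6, 2.59 and 2.7 in Bmi1 null (replicates 1 to 4) and finally 1.74, 2.29, 1.81 and 2.31 in double null colonies (replicates 1 to 4). By this probe it fell by 0.82 ± 0.19 in Bmi1 null (adjusted p = 0.00149, limma) and 1.4 ± 0.19 in double null colonies (adjusted p = 1.86e-05), with no overlap of genotypes, whereas relative to all genes it stood 0.42 higher and at 0.00, and with the median of the array as the scale its change in Bmi1 null was 0.12. By this probe, relative to all genes, Ndufa1 lay at -1.69 and -2.27 with quantile normalization and -2.68 and -3.27 with a common spread. It lay at -1.88 and -2.46 in the authors' deposited table and at 0.15 and -0.98 with normexp. Its second probe was higher by 3.33 and 2.94. The mean of both probes was higher by 1.26 and 0.77, so the direction for Ndufa1 against wild type turned with the probe used. The brighter probe of Ndufv3, an accessory subunit of the NADH-oxidising module, rose by 2.33 ± 0.22 in Bmi1 null colonies, while its other 2 probes gave -0.07 (adjusted p = 0.756) and -0.54 (adjusted p = 0.0131). Sdha and Ndufab1, the mitochondrial acyl carrier protein, each had 1 probe called higher in Bmi1 null colonies (2.06 and 1.52) and 1 that was not (-0.37 and -0.04). Which transcripts the probes detect was not tested.

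Between the mutants, whose arrays had similar spreads, few members were called. In double null against Bmi1 null colonies 1 member, Ndufb5, was called higher and 1, Cox6b2, lower (background 2.75% higher and 4.80% lower over all genes), and 82 did not pass. The median change of the 84 members was 0.03 (0.11 relative to all genes). The 76 widely expressed members that did not pass had changes of -0.59 to 0.69, a median standard error of 0.22 and 95% intervals that lay between -1.12 and 1.33, and 10 of them had an unadjusted p under 0.05. The 4 double null arrays lay wholly above the 4 Bmi1 null arrays for 9 members (6.35% of all genes did so) and wholly below for 4 (7.43% of all genes). The 9 were Ndufa5, Ndufb5, Ndufv1, Sdhd, Cyc1, Cox5a, Atp5a1, Atp5b and Atp5c1, and the 4 were Ndufa1, Ndufab1, Ndufs7 and Cox6b2. The 16 redox or catalytic core subunits had a median relative change of 0.36, with 0 called by limma and 5 at an unadjusted p under 0.05, and the 61 widely expressed accessory subunits 0.04. With normexp background correction these medians were -0.17 and -0.45, and the difference between the classes was not tested.

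**Figure D4:**
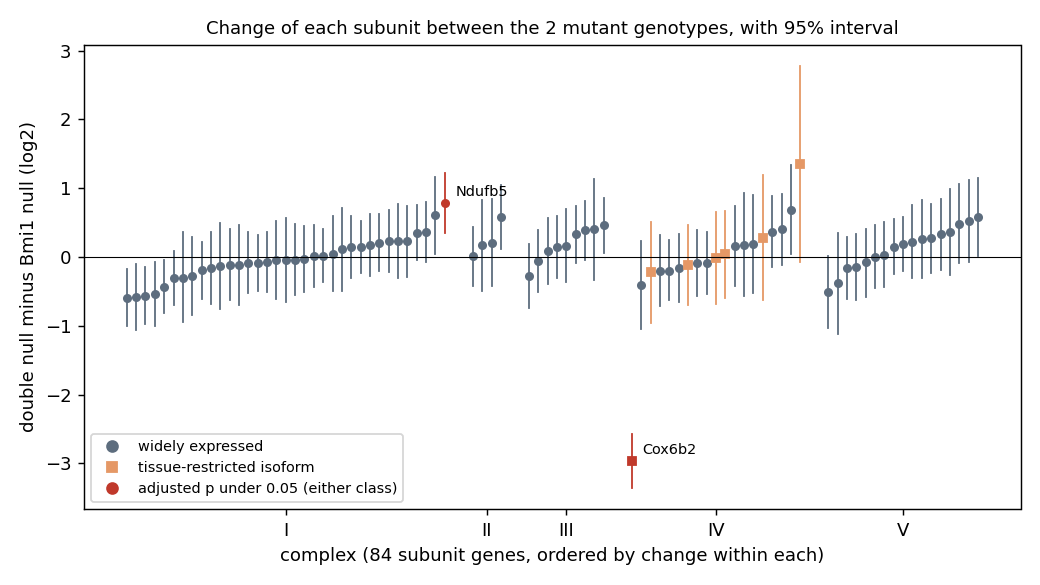
Difference between double null and Bmi1 null colonies (log2, mean of 4 arrays minus mean of 4 arrays, except 3 double null arrays for Atp5e) of each of the 84 subunit genes, by complex and ordered by size, with 95% intervals from limma; circles are widely expressed members, squares tissue-restricted isoforms, and red marks an adjusted p under 0.05. Only Ndufb5 (0.78) and Cox6b2 (-2.97) are red, and the widely expressed members that are not red lie between -0.59 and 0.69.

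Cox6b2 had the largest difference between the mutants of any member. It is the testis form of the subunit that, as Cox6b1, joins the monomers of the complex IV dimer on the intermembrane side. Its level was 2.13, 2.15, 2.51 and 2.26 in wild type, then 2.93, 3.27, 2.98 and 3.37 in Bmi1 null and finally 0.37, 0.15, -0.02 and 0.17 in double null colonies. Double null colonies lay below every other array, and Bmi1 null colonies above every wild-type array. Between the mutants Cox6b2 fell by 2.97 ± 0.18 (SE), a 7.82-fold lower level (adjusted p = 6.33e-06, limma), with a 95% interval of -3.36 to -2.57. Its rank over the 31064 genes tested, called or not, was 3 by p-value and 89 by size of the fall, and 1492 genes were called lower. The change was -3.29 within slide 2 and -2.71 within slide 4, -2.94 with slide as a block (adjusted p = 0.00749) and -2.48 to -2.87 under the other scalings. Against wild type Cox6b2 stood -2.1 ± 0.18 in double null colonies (adjusted p = 4.62e-07), and 0.87 ± 0.18 in Bmi1 null colonies (adjusted p = 0.000639); the latter turned to -0.11 with quantile normalization, -0.73 with a common spread and -0.26 in the authors' deposited table. The linear levels of 7 testis germ cell markers summed to 4.84 to 5.32 on wild-type, 1.65 to 1.90 on Bmi1 null and 1.57 to 1.77 on double null arrays (7 of 7 were well above background on every wild-type array, 6 of 7 on every array of each mutant), and their part in the level of Cox6b2 was not tested. Without double null replicate 4, the array high in mesenchymal markers, the fall was -2.97 (adjusted p = 1.89e-05).

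The widely expressed partner of Cox6b2 was not called between the mutants. Cox6b1 read 0.7, 1.05, 0.71 and 0.78 in wild type, then 2.53, 2.99, 3.07 and 2.89 in Bmi1 null and finally 2.14, 3.16, 2.47 and 2.93 in double null colonies, with the mutants overlapping each other and above wild type. Its change between the mutants was -0.2 ± 0.24 (95% interval -0.71 to 0.32, adjusted p = 0.698). Of 8 genes near Cox6b2 on chromosome 7, chosen by position after its values were seen, 1 was called between the mutants, Ube2s. Over all genes 4.8% were called lower and 2.75% higher. Kmt5c, a histone methyltransferase, changed by 0.07 ± 0.22 (adjusted p = 0.904), Hspbp1 by 0.31 ± 0.18 (adjusted p = 0.353), the cytokine gene Il11 by -0.79 ± 0.26 (adjusted p = 0.0936) and Ube2s, a ubiquitin-conjugating enzyme of mitosis, by -1.42 ± 0.25 (adjusted p = 0.00549). The others were Tmem150b with -0.98 ± 0.57 (3 double null arrays), Fam71e2 with 0.16 ± 0.54, Tmem238 with 0.2 ± 0.2 and Rpl28 with -0.22 ± 0.26.

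**Figure D5:**
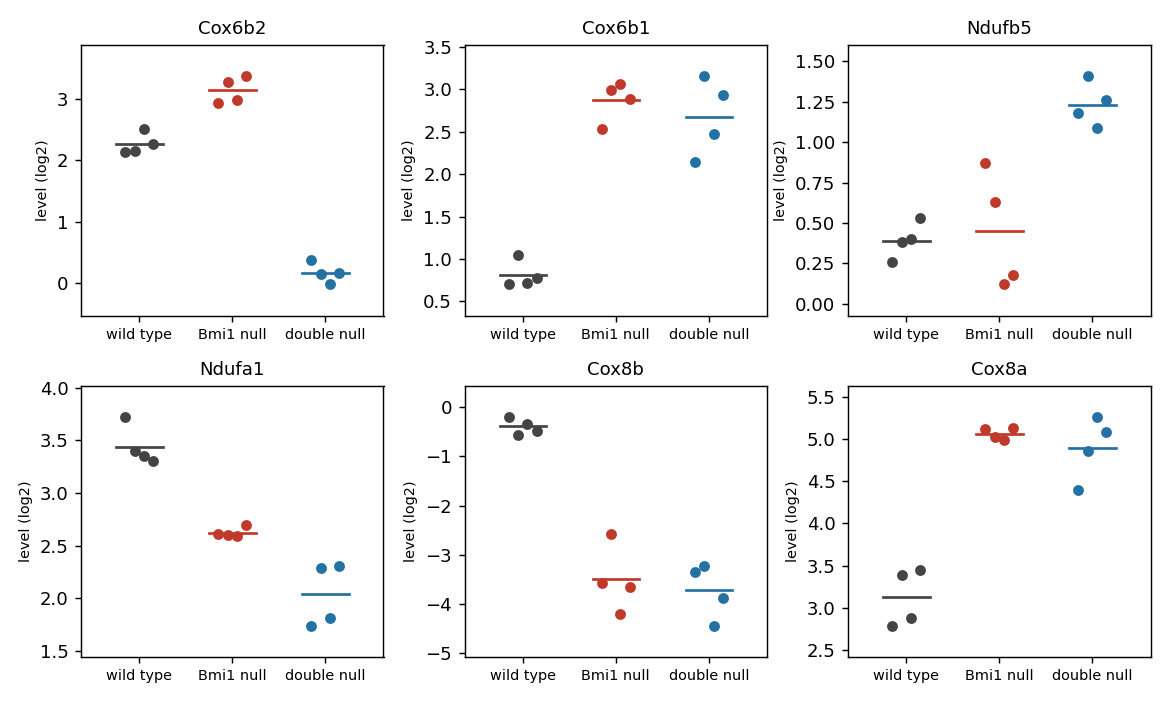
Level (log2 scale, 0 being the array's 75th percentile) of 6 subunit genes on each array, by genotype; points are arrays, n = 4 per genotype, horizontal bars are means, each panel has its own vertical axis, and Ndufa1 is shown by its brighter probe only. Cox6b2 is lowest in double null colonies (-0.02 to 0.37), Ndufb5 highest there (1.09 to 1.41), and Cox6b1 and Cox8a are above wild type in both mutants while Cox8b is below.

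Of the 7 tissue-restricted isoforms, 5 were called lower and 1 higher in Bmi1 null colonies and 6 lower and 0 higher in double null colonies on the 75th percentile scale, on which 58.3% and 59.9% of all genes were called lower. With the array median as the scale 3 and 4 were called lower. Their median relative change was -0.08 and -0.69. These counts include Cox8c, which passed the filter on dim probes only through the wild type. Only Cox6b2 was called between the mutants. Cox8b, the heart and muscle form of the small subunit Cox8, read -0.2, -0.56, -0.33 and -0.48 in wild type, then -3.58, -2.57, -4.2 and -3.65 in Bmi1 null and finally -3.34, -3.22, -4.44 and -3.87 in double null colonies. It was -3.1 ± 0.34 in Bmi1 null (adjusted p = 3.4e-06) and -3.33 ± 0.34 in double null colonies (adjusted p = 1.72e-06), and remained below wild type after the median of all genes was taken off (-1.87 and -1.92). Its widely expressed partner Cox8a read 2.79, 3.39, 2.88 and 3.45 in wild type, then 5.12, 5.02, 4.99 and 5.13 in Bmi1 null and finally 4.4, 4.86, 5.26 and 5.08 in double null colonies. Cox8a was above wild type in all 8 mutant colonies, by 1.94 ± 0.23 and 1.77 ± 0.23, but by -0.38 and -0.66 when arrays were given a common spread.

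Cox8c, the testis form of the same subunit, was well above background on 4 of 4 wild-type, 0 of 4 Bmi1 null and 1 of 4 double null arrays. Wild type read -2.57, -2.52, -2.6 and -2.93, and the double null arrays -3.71, -7.5, -7.41 and -6.17, replicate 1 being the highest. On the 75th percentile scale its level in Bmi1 null colonies was at least 9.43-fold lower than in wild type. For this bound the dimmer side was set on each array to the higher of its own signal and the lowest signal well above background. Relative to all genes its change in Bmi1 null colonies was -3.66 on that scale, -2.48 with quantile normalization and -2.19 with a common spread. It was -0.74 with normexp and -0.53 in the authors' deposited table. In double null colonies the call was lost with a common spread (-1.02, adjusted p = 0.0582, limma) and with normexp (-0.76, adjusted p = 0.0773). Cox6a2, the heart and muscle form of Cox6a, read 1.16, 1.02, 1.03 and 1.05 in wild type, then -1.66, -0.21, -0.68 and -1.52 in Bmi1 null and finally -0.79, -1.32, -0.63 and -1.41 in double null colonies. Both mutants lay below every wild-type array, by -2.08 ± 0.31 and -2.1 ± 0.31 (relative -0.84 and -0.70). Cox6a1, its widely expressed partner, read 2.3, 3.26, 2.64 and 3.74 in wild type, then 5.76, 5.46, 5.16 and 5.0 in Bmi1 null and finally 4.85, 5.78, 5.72 and 5.8 in double null colonies. Cox6a1 was higher by 2.36 ± 0.33 and 2.55 ± 0.33. With a common spread its differences were 0.07 and 0.07 and were not called (adjusted p = 0.853 and 0.869, limma). Cox7a1, the muscle form of Cox7a, read 0.53, 1.02, 0.43 and 0.33 in wild type, then -1.05, 0.03, -0.26 and -0.93 in Bmi1 null and finally -0.83, -0.02, -0.32 and -0.89 in double null colonies. It was -1.13 ± 0.29 and -1.09 ± 0.29 on the 75th percentile scale, but 0.11 and 0.31 relative to all genes. With the array median as the scale it was -0.19 and -0.06 and was not called. Relative to all genes it was -1.13 and -1.12 with quantile normalization and -1.09 and -1.09 with a common spread. In the authors' deposited table that change was -1.39 and -1.38, and with normexp -0.11 and -0.53.

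Cox7a2, the widely expressed partner of Cox7a1, read 0.91, 1.31, 1.2 and 1.63 in wild type, then 3.9, 3.96, 4.1 and 4.21 in Bmi1 null and finally 3.58, 3.96, 3.76 and 4.1 in double null colonies. It stood 2.78 ± 0.2 and 2.59 ± 0.2 above wild type, with no overlap. Cox4i2, the lung form of the regulatory subunit Cox4, read 0.02, 0.05, -0.18 and -0.35 in wild type, then -1.87, -0.96, -1.17 and -1.73 in Bmi1 null and finally -1.8, -1.0, -1.35 and -2.03 in double null colonies. It was called lower in both mutants on the 75th percentile scale, where its change relative to all genes was -0.08 and -0.03. That relative change was -0.93 and -1.01 with quantile normalization and -0.81 and -0.91 with a common spread. In the authors' deposited table it was -1.16 and -1.23, and with normexp -0.24 and -0.69. With the array median as the scale the calls were lost. Cox4i1, its partner, read 1.37, 2.71, 1.81 and 3.21 in wild type, then 5.33, 4.87, 5.46 and 5.31 in Bmi1 null and finally 5.3, 5.18, 5.75 and 5.48 in double null colonies. Cox4i1 rose by 2.97 ± 0.34 in Bmi1 null (adjusted p = 5.57e-06) and 3.15 ± 0.34 in double null colonies (adjusted p = 2.98e-06), the largest relative rise of any member in the latter (4.56). Cox7b2, a testis form, read -4.21, -3.72, -4.21 and -4.53 in wild type, then -5.53, -3.87, -4.42 and -6.03 in Bmi1 null and finally -4.96, -4.41, -4.19 and -5.16 in double null colonies, was well above background on 11 arrays, and passed in neither contrast against wild type. It was called lower with slide as a block (-1.02, adjusted p = 0.0196, and -1.28, adjusted p = 0.0266), with the replicate block (-1.15, adjusted p = 0.00728, and -0.86, adjusted p = 0.0257) and, in Bmi1 null colonies, without Bmi1 null replicate 2 (-1.16, adjusted p = 0.0122), and called higher with quantile normalization (1.96 and 2.27), so its direction was not settled. Cox7b, the X-linked widely expressed form, read 1.43, 1.63, 1.51 and 1.96 in wild type, then 3.95, 3.9, 4.06 and 4.18 in Bmi1 null and finally 3.46, 4.06, 3.92 and 4.28 in double null colonies. It was above wild type in all 8 mutant colonies.

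Markers of all other cell types examined except mesenchyme and ameloblasts had lower sums on every mutant array than on every wild-type array. The linear levels of 8 striated muscle markers summed to 5.79 to 7.52 on wild-type, 2.38 to 3.69 on Bmi1 null and 3.38 to 4.35 on double null arrays. Those of 4 brown fat markers summed, in the same order, to 3.62 to 4.64, 1.05 to 1.52 and 0.801 to 1.12. All 8 muscle markers were well above background on all arrays, and of the brown fat markers 4 of 4 on all wild-type and Bmi1 null arrays and 2 of 4 on all double null arrays. The sums of 9 immune markers were 8.64 to 10.8, 1.16 to 1.67 and 0.989 to 1.61, and those of 6 endothelial markers 2.21 to 3.17, 0.416 to 0.799 and 0.541 to 1.04. The part of these cell types in the isoforms' levels was not tested. The shift of all genes on the same scale was not taken off these sums. The median change of all genes against wild type was -1.24 for Bmi1 null and -1.41 for double null arrays. On that scale 58.3% and 59.9% of all genes were called lower (limma). Fewer cells of a type, less RNA per cell and the wider signal distribution of the mutant arrays cannot be told apart in bulk RNA of a colony.

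The remaining subunits of complex IV were all called higher in both mutants, on the 75th percentile scale. Ndufa4, a subunit first assigned to complex I, had the largest relative rise in Bmi1 null colonies by the brightest probe of each gene (4.57) and read -0.1, 0.61, 0.51 and 1.07 in wild type, then 3.38, 3.8, 4.25 and 3.95 in Bmi1 null and finally 3.19, 3.76, 2.95 and 3.87 in double null colonies. All 8 mutant arrays lay above the wild type. Cox5a, a subunit of the matrix side, read 0.32, 1.52, 0.64 and 1.71 in wild type, then 3.23, 3.01, 2.99 and 2.89 in Bmi1 null and finally 3.39, 4.09, 3.8 and 3.6 in double null colonies. Double null colonies lay above every Bmi1 null colony, yet the change of 0.69 ± 0.3 did not pass (adjusted p = 0.195). Cox5b, a zinc-binding subunit, read 3.16, 3.5, 3.12 and 3.38 in wild type, then 4.32, 3.61, 3.81 and 3.8 in Bmi1 null and finally 3.84, 3.98, 4.64 and 4.56 in double null colonies. Its difference of 0.6 ± 0.23 in Bmi1 null (adjusted p = 0.0309) turned to -0.50 with quantile normalization, -1.62 with a common spread and -0.30 in the authors' deposited table, and in double null colonies (0.96 ± 0.23) to -0.21 and -1.43. In Bmi1 null colonies the call was also lost with slide as a block (0.69, adjusted p = 0.0524) and without wild-type replicate 1 (0.55, adjusted p = 0.072), wild-type replicate 4 (0.54, adjusted p = 0.0779) or Bmi1 null replicate 1 (0.45, adjusted p = 0.0986). Cox7a2l, also called Scaf1, joins complexes III and IV into supercomplexes and read -1.34, -1.39, -1.49 and -1.17 in wild type, then 0.52, -0.02, 0.47 and 0.55 in Bmi1 null and finally 0.55, 0.46, 0.65 and 1.44 in double null colonies. It was higher by 1.73 ± 0.24 and 2.12 ± 0.24. Double null and Bmi1 null arrays overlapped for it.

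In complex I, 33 of 35 members were called higher and 1, Ndufa1, lower in each mutant against wild type. The only member of complex I called between the mutants was Ndufb5, an accessory subunit of the membrane arm. Ndufb5 read 0.26, 0.38, 0.4 and 0.53 in wild type, then 0.87, 0.63, 0.12 and 0.18 in Bmi1 null and finally 1.18, 1.41, 1.09 and 1.26 in double null colonies. Every double null colony lay above every other colony, and Bmi1 null and wild type overlapped. The rise between the mutants was 0.78 ± 0.2 (SE), 1.72-fold, with a 95% interval of 0.35 to 1.22 and an adjusted p of 0.032 (limma), rank 1770 by p-value of 31064. Double null colonies also exceeded wild type, by 0.84 ± 0.2 (adjusted p = 0.00158, limma), a call lost with a common spread (0.42, adjusted p = 0.0683). The difference of Bmi1 null colonies from wild type was 0.06 ± 0.2 (adjusted p = 0.799). The rise was 0.46 within slide 2 and 1.09 within slide 4. It did not pass with slide as a block (adjusted p = 0.193), with the replicate block (adjusted p = 0.0746), with quantile normalization (adjusted p = 0.069), with a common spread (adjusted p = 0.101) or with normexp (adjusted p = 0.0605). It was also lost when wild-type replicate 4, Bmi1 null replicate 3 or 4, or double null replicate 2, 3 or 4 was left out, at adjusted p from 0.0535 to 0.0907 and a rise of 0.68 to 0.83. The difference was above 0 in each of these.

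The redox subunits of complex I were all called higher than wild type in both mutants on the 75th percentile scale, and 0 were called between the mutants. Ndufv1, the flavoprotein that oxidises NADH, read 0.51, 1.66, 0.68 and 1.49 in wild type, then 2.97, 2.62, 2.86 and 2.86 in Bmi1 null and finally 3.31, 3.23, 3.6 and 3.6 in double null colonies. All double null colonies lay above all Bmi1 null colonies, with a difference of 0.61 ± 0.26 that did not pass (adjusted p = 0.186). Ndufv2, its partner with an iron-sulphur cluster, read -1.54, -0.53, -1.12 and -0.53 in wild type, then 1.96, 1.31, 1.84 and 1.5 in Bmi1 null and finally 1.51, 1.67, 1.7 and 1.93 in double null colonies, and the mutants overlapped. Ndufs1, the largest subunit and a carrier of iron-sulphur clusters, read -0.15, 0.59, 0.07 and 0.36 in wild type, then 2.07, 1.72, 2.15 and 2.06 in Bmi1 null and finally 1.98, 2.16, 1.97 and 2.44 in double null colonies. It was higher than wild type by 1.78 ± 0.21 and 1.92 ± 0.21. The mutants overlapped for Ndufs1. Ndufs7, which holds the last iron-sulphur cluster before ubiquinone, read 0.43, 0.69, 0.52 and 0.58 in wild type, then 2.52, 2.53, 2.68 and 2.65 in Bmi1 null and finally 1.92, 2.29, 1.99 and 2.46 in double null colonies. Here the double null colonies were the lower ones, with no overlap, by -0.43 ± 0.18 (adjusted p = 0.167).

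Among accessory subunits of complex I, Ndufa13, also known as Grim19, had the largest relative rise in Bmi1 null colonies by the brightest probe of each gene (4.14, below the 4.57 of the second probe of Ndufa1) and read 1.75, 2.46, 1.81 and 2.55 in wild type, then 4.8, 4.71, 5.45 and 5.22 in Bmi1 null and finally 4.47, 4.53, 5.05 and 5.02 in double null colonies. Ndufab1 by its brighter probe read -0.07, 0.96, 0.13 and 0.48 in wild type, then 2.0, 1.71, 2.07 and 1.78 in Bmi1 null and finally 1.34, 1.27, 1.37 and 1.26 in double null colonies, with double null colonies below all Bmi1 null colonies. That difference of -0.58 ± 0.22 did not pass (adjusted p = 0.141). Its second probe gave -0.43, and the authors' deposited table called it, as it did Ndufa1 and Ndufa3. For Ndufa1 the difference between the mutants was -0.59 ± 0.19 (adjusted p = 0.0862) by the brighter probe and -0.39 by the other. Ndufv3 by its brighter probe read 1.14, 1.68, 0.99 and 1.43 in wild type, then 3.77, 3.51, 3.76 and 3.53 in Bmi1 null and finally 3.17, 3.83, 3.5 and 3.96 in double null colonies, and its 3 probes gave -0.03, 0.35 and 0.05 between the mutants. Ndufb9 was called higher in Bmi1 null (0.59 ± 0.24, adjusted p = 0.0355) and not in double null colonies (0.47 ± 0.24, adjusted p = 0.0804), and the 2 mutants differed by -0.12 ± 0.24 (adjusted p = 0.837).

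Complex II, the only complex encoded wholly in the nucleus, had 3 of 4 members called higher in each mutant on the 75th percentile scale, and 0 between the mutants (limma; 1 at an unadjusted p under 0.05). Sdha, the flavoprotein that oxidises succinate, read by its brighter probe 0.49, 1.43, 1.02 and 2.11 in wild type, then 3.4, 3.41, 3.26 and 3.22 in Bmi1 null and finally 3.55, 3.69, 3.74 and 3.15 in double null colonies. Sdhb, the iron-sulphur subunit, read -0.25, 0.82, 0.23 and 0.76 in wild type, then 3.02, 2.48, 3.78 and 2.96 in Bmi1 null and finally 3.26, 3.09, 3.57 and 2.98 in double null colonies. Sdhb rose most of the 4, by 2.67 ± 0.3 in Bmi1 null and by 2.84 ± 0.3 in the double null, with every mutant colony above every wild-type colony. Sdhc, a membrane anchor that binds haem together with Sdhd, read 0.27, 0.61, -0.13 and -0.03 in wild type, then 0.73, 0.39, 0.76 and 0.55 in Bmi1 null and finally 0.43, 0.69, 0.63 and 0.72 in double null colonies, and passed in neither contrast (0.43 ± 0.2, adjusted p = 0.0625, and 0.44 ± 0.2, adjusted p = 0.0566), although it was called higher in both when the median of the array was the scale and when wild-type replicate 3 was left out (0.57, adjusted p = 0.017, and 0.58, adjusted p = 0.0151). It was also called in Bmi1 null colonies without Bmi1 null replicate 2 (0.50, adjusted p = 0.0459). Sdhd, the other anchor, read -1.14, -1.01, -0.98 and -0.42 in wild type, then 0.32, -0.28, 0.03 and -0.03 in Bmi1 null and finally 0.92, 0.41, 0.55 and 0.51 in double null colonies. Double null colonies lay above all Bmi1 null colonies for Sdhd, by 0.58 ± 0.22 (adjusted p = 0.126).

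All 9 members of complex III were called higher in both mutants on the 75th percentile scale, and 0 between the mutants (limma; 1 at an unadjusted p under 0.05). Uqcrfs1, the Rieske iron-sulphur protein, read -0.58, 1.18, -0.36 and 0.43 in wild type, then 2.46, 2.23, 1.84 and 2.14 in Bmi1 null and finally 2.25, 2.56, 2.6 and 2.87 in double null colonies. Its wild-type arrays differed widely, the arrays of slide 1 (replicates 1 and 4) being the lower ones. Cyc1, the cytochrome c1 that hands electrons to cytochrome c, read 0.54, 0.83, 0.66 and 1.1 in wild type, then 2.04, 1.86, 1.65 and 1.93 in Bmi1 null and finally 2.39, 2.32, 2.49 and 2.14 in double null colonies. The double null colonies were all above the Bmi1 null colonies, by 0.46 ± 0.18 (adjusted p = 0.158). The call of Cyc1 in Bmi1 null against wild type was lost with a common spread (0.41, adjusted p = 0.0944, limma). Uqcrc1, a core protein of the matrix side, read 0.65, 1.42, 0.84 and 1.61 in wild type, then 3.37, 3.6, 3.43 and 3.58 in Bmi1 null and finally 3.52, 3.74, 3.62 and 3.47 in double null colonies, and its 2 probes differed by 1.24 and 1.56 in their changes against wild type. Uqcrh, the hinge protein, had the largest relative rise of complex III in both mutants (3.79 and 4.10) and read 2.31, 2.58, 2.51 and 3.06 in wild type, then 5.18, 4.99, 5.19 and 5.31 in Bmi1 null and finally 4.89, 5.43, 5.43 and 5.5 in double null colonies. With a common spread its differences were 0.46 (adjusted p = 0.0667, limma) and 0.43 (adjusted p = 0.0827), and neither was called. Double null replicate 1 stood below the other 3 double null arrays for Uqcrh.

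All 17 members of complex V were called higher in both mutants on the 75th percentile scale, and 0 between the mutants (limma; 1 at an unadjusted p under 0.05). Atp5a1, the alpha subunit of the catalytic head, read 2.07, 2.82, 2.71 and 3.61 in wild type, then 4.36, 4.06, 3.86 and 4.3 in Bmi1 null and finally 4.51, 4.6, 4.77 and 4.78 in double null colonies. Atp5b, the beta subunit with the catalytic sites, read 3.73, 4.42, 4.29 and 5.13 in wild type, then 5.86, 5.76, 5.59 and 6.13 in Bmi1 null and finally 6.17, 6.3, 6.62 and 6.2 in double null colonies. For both, every double null colony was above every Bmi1 null colony, by 0.52 ± 0.28 and 0.48 ± 0.27 (adjusted p = 0.302 and 0.323, limma). With a common spread their differences from wild type turned to -0.67 and -1.60 in Bmi1 null and to -0.35 and -1.36 in double null colonies. In Bmi1 null colonies both calls were also lost with quantile normalization (0.27, adjusted p = 0.399, and 0.49, adjusted p = 0.1). The same held in the authors' deposited table (0.16, adjusted p = 0.603, and 0.44, adjusted p = 0.114). Atp5c1, the gamma subunit of the rotor, read -1.27, -0.32, -0.86 and -0.11 in wild type, then 1.51, 0.85, 1.5 and 1.11 in Bmi1 null and finally 1.7, 1.82, 1.78 and 2.0 in double null colonies. Its difference between the mutants was 0.58 ± 0.26 (adjusted p = 0.214), with the double null colonies again above the Bmi1 null colonies. The proton-conducting ring is built of 1 mature protein made from 3 genes. Atp5g1 read 0.62, 0.96, 0.95 and 1.41 in wild type, then 2.65, 2.86, 3.36 and 2.99 in Bmi1 null and finally 3.05, 3.29, 3.61 and 2.97 in double null colonies. Atp5g2 read 2.61, 2.77, 2.71 and 2.93 in wild type, then 4.35, 3.81, 3.95 and 4.33 in Bmi1 null and finally 4.28, 4.31, 4.22 and 4.4 in double null colonies. It turned to -0.64 and -0.59 against wild type with a common spread. Its calls were also lost with quantile normalization (0.27, adjusted p = 0.211, and 0.39, adjusted p = 0.0701, limma). In the authors' deposited table they were lost as well (0.28, adjusted p = 0.118, and 0.35, adjusted p = 0.0544). Atp5g3 read 0.07, 0.57, 0.48 and 1.4 in wild type, then 2.81, 2.33, 2.18 and 2.96 in Bmi1 null and finally 2.54, 3.12, 2.94 and 3.14 in double null colonies. All 3 were above wild type in all 8 mutant colonies and overlapped between the mutants. The largest relative rises of complex V were those of Atp5e, the epsilon subunit, in Bmi1 null (4.21) and Atp5j in double null colonies (4.27). Atp5e read 1.65, 2.16, 1.67 and 1.94 in wild type, then 4.44, 4.19, 5.76 and 4.91 in Bmi1 null and finally 4.2, 4.43 and 4.7 in double null colonies, replicate 3 of the double null colonies being left out as an outlier spot (n = 3). Atp5j read -0.52, 0.07, -0.43 and 0.19 in wild type, then 2.49, 1.96, 2.54 and 2.47 in Bmi1 null and finally 2.38, 2.71, 2.53 and 3.15 in double null colonies.

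Within the wild type, the members' levels differed between the arrays of slide 1 and those of slides 2 and 3. For 58 of the 84 members both wild-type arrays of slides 2 and 3 (replicates 3 and 5) lay above both of slide 1, and for 6 below, whereas this held for 18.7% and 38.4% of all genes. The median difference between these arrays was 0.38 over the members and -0.11 over all genes. The interquartile range of log2 signals was 2.62 and 2.61 on replicates 3 and 5, and 2.49 and 2.51 on replicates 1 and 4. Slide, colony and width of the signal distribution cannot be told apart here. Between the mutants such splits can be read within slides 2 and 4 only, where the members' median relative change was 0.43 and -0.02.

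Genes of neighbouring mitochondrial functions were described from lists chosen with earlier results of these data known. Between double null and Bmi1 null colonies the tricarboxylic acid cycle and pyruvate entry list had 4 of 21 genes called higher and 0 lower (2.75% and 4.80% of all genes), led by Idh2, the mitochondrial NADP-dependent isocitrate dehydrogenase, and Mpc1, a subunit of the mitochondrial pyruvate carrier. Idh2 read -0.51, -0.07, -0.19 and 0.35 in wild type, then 0.94, 0.99, 1.41 and -0.11 in Bmi1 null and finally 2.89, 2.96, 3.41 and 2.99 in double null colonies, a rise of 2.25 ± 0.3 (adjusted p = 0.00137), and Mpc1 rose by 0.99 ± 0.27 (adjusted p = 0.0397). Every double null colony stood above every other colony for Idh2. The glycolysis list had 5 of 24 called higher and 0 lower, led by Pfkp, a phosphofructokinase (1.61 ± 0.25, adjusted p = 0.00311), and Pdk1, a kinase that inhibits pyruvate dehydrogenase (1.6 ± 0.33, adjusted p = 0.0124). The fatty acid oxidation list had 3 of 16 higher and 0 lower, led by the dehydrogenases Hadh (1.19 ± 0.26, adjusted p = 0.0163) and Acadm (1.18 ± 0.19, adjusted p = 0.00336). The median relative changes of these 3 lists were 0.46, 0.39 and 0.12, beside 0.11 for the subunits.

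Lists closer to the subunits are read against the same shares of all genes, 2.75% higher and 4.80% lower. The assembly factors had 2 of 41 called higher, Coa7 (0.84 ± 0.21, adjusted p = 0.0265), needed for complex IV, and Uqcc1 (0.65 ± 0.18, adjusted p = 0.0416), needed for complex III, and 0 lower. The mitochondrial ribosome had 2 of 78 higher and 1 lower, the latter Mrps12, a small-subunit protein (-1.43 ± 0.21, adjusted p = 0.00231), with Mrps26 the largest rise (0.93 ± 0.22, adjusted p = 0.0244). Protein import had 2 of 25 higher, Timm29 (1.07 ± 0.24, adjusted p = 0.0167) and Timm8a1 (0.96 ± 0.24, adjusted p = 0.03). Electron carriers and coenzyme Q synthesis (16 genes), regulators of mitochondrial biogenesis and genome maintenance (23 genes) and the cytoplasmic ribosomal proteins (84 genes) had 0 called by limma, and 0, 4 and 7 genes at an unadjusted p under 0.05. The proteasome had 1 of 39 called higher, Psmb7 (0.94 ± 0.24, adjusted p = 0.0339). Of 13 antioxidant and uncoupling genes 1 was called, Ucp2, an uncoupling protein family member of the inner membrane. Ucp2 read 1.72, 3.06, 1.58 and 2.21 in wild type, then 3.62, 3.62, 4.25 and 3.65 in Bmi1 null and finally 1.36, 1.31, 1.47 and 2.31 in double null colonies, a change of -2.17 ± 0.33 (adjusted p = 0.00283), with every double null colony below every Bmi1 null colony.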

How the data were processed

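RNA of 12 single colonies, 4 of each genotype, was measured on 1-colour Agilent arrays. The authors deposited Feature Extraction 10.7.3.1 output, per the file headers, whose processed signal is a background-corrected intensity per spot. Deposited flags mark spots well above background, saturated or outlying. The value table deposited by the authors is on a log2 scale with column medians of 7.21 to 7.24; it correlated at 0.992 to 1 with log2 of the spot medians, and how it was normalized was not stated in the labels or headers. Grouping followed the labels.

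Control and outlier spots were left out, and spots of 1 probe were averaged after log2 of the processed signal and subtraction of each array's 75th percentile. A probe was kept when well above background on at least 3 of 4 arrays of a genotype. Accessions were matched to symbols through RefSeq (GRCm38.p6), which gave 1 symbol to 24844 of 41174 probes and none to 16330. The brightest probe stood for a gene, and unnamed probes stood for themselves, giving 31064 genes tested. limma 3.58.1 in R 4.3.3 (with version 1.17.8 of data.table) fitted 1 mean per genotype on all 12 arrays. Genes were called at a Benjamini-Hochberg adjusted p under 0.05 over all genes of a contrast. Precision is limited by having 4 arrays per genotype. The test across genes was tested on simulated data.

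Alternatives were other scalings (array median, quantile, common spread), normexp (offset 50), other filters, the mean of probes, the authors' deposited table, slide and replicate blocks, within-slide values and each array left out. Normexp used the median spot signal, the column at hand, in place of the mean signal. Replicate numbers did not pair the colonies: deviations of arrays with the same number correlated at -0.15 to 0.22. The members and lists were chosen with earlier results of these data known. Values on every array are given for core subunits, isoforms and their partners, the largest called rise and fall of each complex and contrast, and genes whose probes disagree or that were dim in a whole genotype; of each other list up to 2 called genes are named. The genes next to Cox6b2 were chosen after its values were seen. The ribosomal protein list was added after the data were seen. The values of 1 core member are not reported here.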

Additional observations from a re-analysis of the deposited data

Results flagged for a closer look

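In 4 of 128 groups of 4 arrays examined over the described members, 1 array lay far from the other 3 (Dixon's ratio above 0.829, which chance exceeds in about 1 of 20 groups). Double null replicate 1 was lowest for Uqcrh, the hinge protein of complex III, at 4.89 (nearest array 5.43), and for Cox6a1 of complex IV, at 4.85 (nearest 5.72). Bmi1 null replicate 2 was lowest for Cox7a2l, the supercomplex factor, at -0.02 (nearest 0.47), and for Atp5j of complex V, at 1.96 (nearest 2.47).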

How the results depend on the processing

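Against wild type, members called lower in Bmi1 null colonies numbered 3 with the array median as the scale and 14 with a common spread, and in double null colonies 4 and 16; those called higher in double null colonies fell to 49 with a common spread. The members' median relative change in Bmi1 null colonies was 1.52 with quantile normalization, 1.16 with a common spread, 2.88 with normexp, 1.5 in the authors' deposited table, 2.30 over genes well above background on all 12 arrays, 3.60 within slide 1 and 2.58 within slide 2. In double null colonies it was 1.47, 0.98, 2.26, 1.36 and 2.35 under the first 5 of these. Between the mutants, members called higher numbered 0 with quantile normalization, a common spread, normexp, the slide block and the replicate block; members called lower numbered 2 with normexp and 4 in the authors' deposited table; and the median relative change was -0.33 with normexp and 0.43 within slide 2. The cause was not tested.

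Leaving out 1 array in turn gave 73 to 76 members higher, 6 to 7 lower and a median of 3.03 to 3.34 in Bmi1 null colonies, 74 to 75, 7 and 3.24 to 3.57 in double null colonies, and 0 to 1, 1 and 0.02 to 0.26 between the mutants. With the replicate block 74 members were called higher and 7 lower in Bmi1 null and 74 and 8 in double null colonies; the labels' replicate numbers did not pair the colonies.

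Of single members, Ndufa1 turned to 0.12 in Bmi1 null colonies with the array median and to 1.26 and 0.77 (Bmi1 null and double null) with the mean of its probes. With quantile normalization, Cox5b turned to -0.50 and -0.21, Cox6b2 to -0.11 (Bmi1 null) and Cox7b2 to 1.96 and 2.27. With a common spread, Cox5b turned to -1.62 and -1.43, Cox6b2 to -0.73 (Bmi1 null), Cox7b2 to 2.01 and 2.36, Cox8a to -0.38 and -0.66, Atp5a1 to -0.67 and -0.35, Atp5b to -1.60 and -1.36 and Atp5g2 to -0.64 and -0.59. In the authors' deposited table, Cox5b turned to -0.30 and Cox6b2 to -0.26 (Bmi1 null), and Cox7b2 to 0.50 and 0.63. Between the mutants neither Ndufb5 nor Cox6b2 changed sign. Among the described members 11 values lost a call and 3 gained a call, and changes of sign among members without a call were not counted. Ndufa3, not among the described members, gained a call in the authors' deposited table. Of all genes called, 30.1% were higher in Bmi1 null colonies, 29.9% in double null colonies and 36.4% between the mutants; this was 46.9%, 46.1% and 45.7% with the array median, 46.7%, 46.5% and 37.7% with quantile normalization, 43.9%, 44.5% and 39.1% with a common spread, 28.4%, 39.5% and 56.3% with normexp, and 46.7%, 46.8% and 48.8% in the authors' deposited table. Signals close to background limit Cox8c and Cox7b2 only, among the members.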
